A study of Mus musculus with 2 samples.

Results

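The platelet-derived growth factor (PDGF) family was examined in the cells of the adult mouse thoracic aorta. Its 7 genes were taken by symbol from the 32287 features counted. They comprise 4 ligand genes (*Pdgfa*, *Pdgfb*, *Pdgfc* and *Pdgfd*), 2 tyrosine kinase receptor genes (*Pdgfra* and *Pdgfrb*) and the receptor-like gene *Pdgfrl*. All 7 were detected in both aortas. Both animals belonged to 1 group, GFPiSMC (n = 2), so every comparison is between cell types of the same aortas and none is between treatments. These were C57BL/6J mice that carried Myh11-CreERT2 and the mT/mG reporter, given tamoxifen at 1 mg/d for 5 days when 3 weeks old and examined at 12 weeks. Cre is driven by the *Myh11* promoter, so recombination marks smooth muscle cells (SMCs), and no signaling gene was deleted. They were male by the study's methods. The study deleted TGF-β receptors in other animals, and the aortas described here have intact signaling. Each thoracic aorta was digested in the cold, live singlets were sorted with no gate on the reporter, and 1 droplet library with 3′ chemistry was made per animal.

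PDGFs are secreted dimers that signal to mesenchymal cells through receptor tyrosine kinases. The A and C chains act mainly through the α receptor, the D chain through the β receptor, and the B chain through both. The A and B chains are processed inside the cell, whereas the C and D chains leave it as latent precursors that proteases outside the cell must cleave. In the developing vessel wall, PDGF-B from endothelial cells recruits mural cells that carry the β receptor, and the α receptor is widely used as a fibroblast marker. For this reason it was not used here to name fibroblasts.

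The files held 8947 and 6263 cells in aortas 1 and 2. Of these, 6539 and 4614 entered the analysis, after filters on genes, unique molecular identifiers (UMIs, a count of captured RNA molecules) and mitochondrial share had kept 6744 and 4698. The labels give 6278 and 4300 cells after the study's own filter. The libraries shared 18 barcodes, and the median depth was 5671 and 5397 UMIs per cell. Cells were named from marker genes that included no PDGF gene: 1698 and 1275 SMCs, 1646 and 1148 fibroblasts, 784 and 727 endothelial cells, 277 and 159 mesothelial cells, 899 and 573 myeloid cells, 621 and 363 lymphocytes, and 24 and 14 erythroid cells. The 6 SMC markers summed to 41634 and 39921 UMIs per 1000000 UMIs of the type (CPM) in SMCs against at most 2885 CPM in fibroblasts, and the 3 fibroblast markers to 19362 and 19356 CPM in fibroblasts. Mesothelial cells also held 6020 and 7576 CPM of the fibroblast markers. Levels below are CPM of the summed UMIs of a cell type. They describe 1 gene across cell types and do not rank genes against each other. With 2 aortas, p-values rest on the spread between 2 animals, pooled over genes and cell types. CPM does not separate fewer cells with a transcript from less transcript per cell. Shares of cells depend on the level and on the depth, so they do not separate these either.

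Most ligand and most receptor transcripts were counted in different cell types. Of the UMIs in the analysed cells, removed cells not counted, SMCs held 66.1% and 67.8% of *Pdgfa* (exact 95% intervals 64.6 to 67.6 and 66.0 to 69.5), 52.1% and 57.7% of *Pdgfc* and 52.4% and 51.1% of *Pdgfd*. Fibroblasts held 91.9% and 93.9% of *Pdgfra* and 93.3% and 92.8% of *Pdgfrl*. *Pdgfrb* was divided between fibroblasts (52.6% and 47.2%) and SMCs (39.3% and 43.3%). *Pdgfb* was found mostly in endothelial cells (36.3% and 43.5%) and myeloid cells (39.9% and 34.1%), with 16.9% and 15.6% in SMCs. These shares depend on how many cells of each type were recovered and on their depth, and their intervals cover counting error only.

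**Figure D1:**
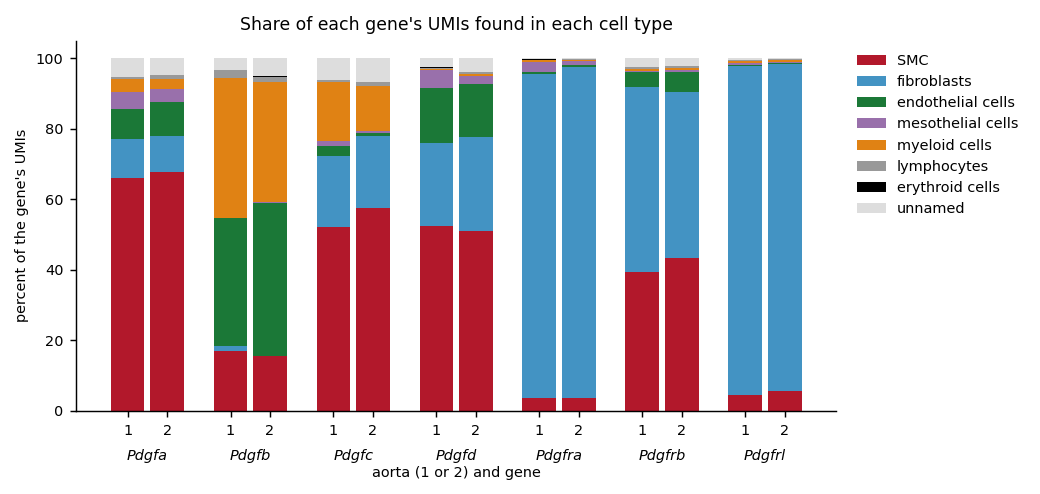
Percent of each gene's UMIs in the analysed cells that were found in each cell type, with 1 stacked bar per aorta (1 or 2). SMCs make up most of *Pdgfa*, fibroblasts nearly all of *Pdgfra* and *Pdgfrl*, and *Pdgfb* is mostly endothelial and myeloid in both aortas.

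*Pdgfa* encodes the A chain, the ligand of PDGF-AA. It lies on GRCm38 at chr5:138976014-138997370, minus strand (ENSMUSG00000025856). SMCs held 161 CPM in aorta 1 and 184 CPM in aorta 2, endothelial cells 101 and 112 CPM, mesothelial cells 98.1 and 102 CPM, fibroblasts 39.4 and 41.6 CPM, myeloid cells 22.6 and 23.4 CPM, and lymphocytes 5.38 and 14.9 CPM. Erythroid cells gave no UMI. SMCs were above every other type in both aortas, while endothelial and mesothelial values overlapped. SMCs exceeded fibroblasts by 2.16 ± 0.13 log2 units (± SE; adjusted p = 4.39e-12) and endothelial cells by 0.89 ± 0.13 (adjusted p = 3.81e-06), by edgeR's quasi-likelihood test with Benjamini-Hochberg adjustment. The log2 fold change of fibroblasts was -1.27 ± 0.14 against endothelial cells (adjusted p = 1.42e-07, edgeR) and -1.11 ± 0.16 against mesothelial cells (adjusted p = 7.26e-06, edgeR). With each cell thinned to 1000 UMIs, 15.3% and 16.2% of SMCs held a *Pdgfa* UMI, against 0.483% and 1.38% of lymphocytes. Without thinning the shares were 65.1% and 68.8% against 2.09% and 2.75%, at median depths of 8905 and 8381 UMIs in SMCs and 4085 and 3907 in lymphocytes.

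*Pdgfb* encodes the B chain and lies at chr15:79995874-80014977, minus strand (ENSMUSG00000000489). Endothelial cells held 63.5 and 70.0 CPM and myeloid cells 37.1 and 38.0 CPM. SMCs held 6.19 and 5.94 CPM, and lymphocytes 4.04 and 3.32 CPM. Fibroblasts gave 8 UMIs in aorta 1 (0.779 CPM) and 0 in aorta 2, where 3 counts would be 0.429 CPM, mesothelial cells gave 0 and 1 UMI, and erythroid cells 1 in each aorta. Endothelial cells were the highest type in both aortas and myeloid cells the next, with no overlap. The log2 fold change of SMCs against endothelial cells was -3.25 ± 0.19 (adjusted p = 1.93e-12, edgeR). Against fibroblasts it was 3.71 ± 0.40 (adjusted p = 6.69e-08, edgeR), with all 8 fibroblast UMIs from aorta 1. It was 3.04 in aorta 1 alone and 7.53 in aorta 2 alone, where fibroblasts were at 0 and the value depends on the prior count of the fit. After thinning, 5.36% and 6.74% of endothelial cells and 4.67% and 2.44% of myeloid cells held a UMI, and 0.471% and 0.628% of SMCs, within the exact 95% interval of the lymphocytes (0.322% and 0.551%).

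*Pdgfc* encodes a chain that binds the α receptor once it has been cleaved. It lies at chr3:81036416-81214040, plus strand (ENSMUSG00000028019). SMCs held 19.4 and 24.0 CPM, from 295 and 255 UMIs, myeloid cells 15.9 and 15.4 CPM, fibroblasts 11.2 and 12.9 CPM and endothelial cells 5.03 and 1.19 CPM, the last from 16 and 3 UMIs. The 3 highest types did not overlap. SMCs exceeded fibroblasts by 0.92 ± 0.19 log2 units (adjusted p = 2.86e-04, edgeR) and endothelial cells by 2.88 ± 0.31 (adjusted p = 8.90e-08, edgeR). The endothelial value rested on few UMIs, and the fold change was 2.16 in aorta 1 and 4.44 in aorta 2.

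*Pdgfd* encodes a chain that binds the β receptor after cleavage, at chr9:6168584-6378850, plus strand (ENSMUSG00000032006). Endothelial cells held 111 and 99.0 CPM, SMCs 77.4 and 79.5 CPM, fibroblasts 51.8 and 63.1 CPM and mesothelial cells 60.1 and 33.4 CPM. Myeloid cells (1.17 and 2.48 CPM) and lymphocytes (3.36 and 7.19 CPM) were far lower. Endothelial cells were the highest and SMCs the next in both aortas, fibroblasts and mesothelial cells overlapped, and the leukocytes were below all 4 of these types. The log2 difference between SMCs and endothelial cells was -0.23 ± 0.14 (adjusted p = 0.191, edgeR), which did not pass the threshold. SMCs were 0.53 ± 0.14 above fibroblasts (adjusted p = 0.00248, edgeR), a difference under 1 log2 unit, and 0.38 in aorta 2 alone.

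**Figure D2:**
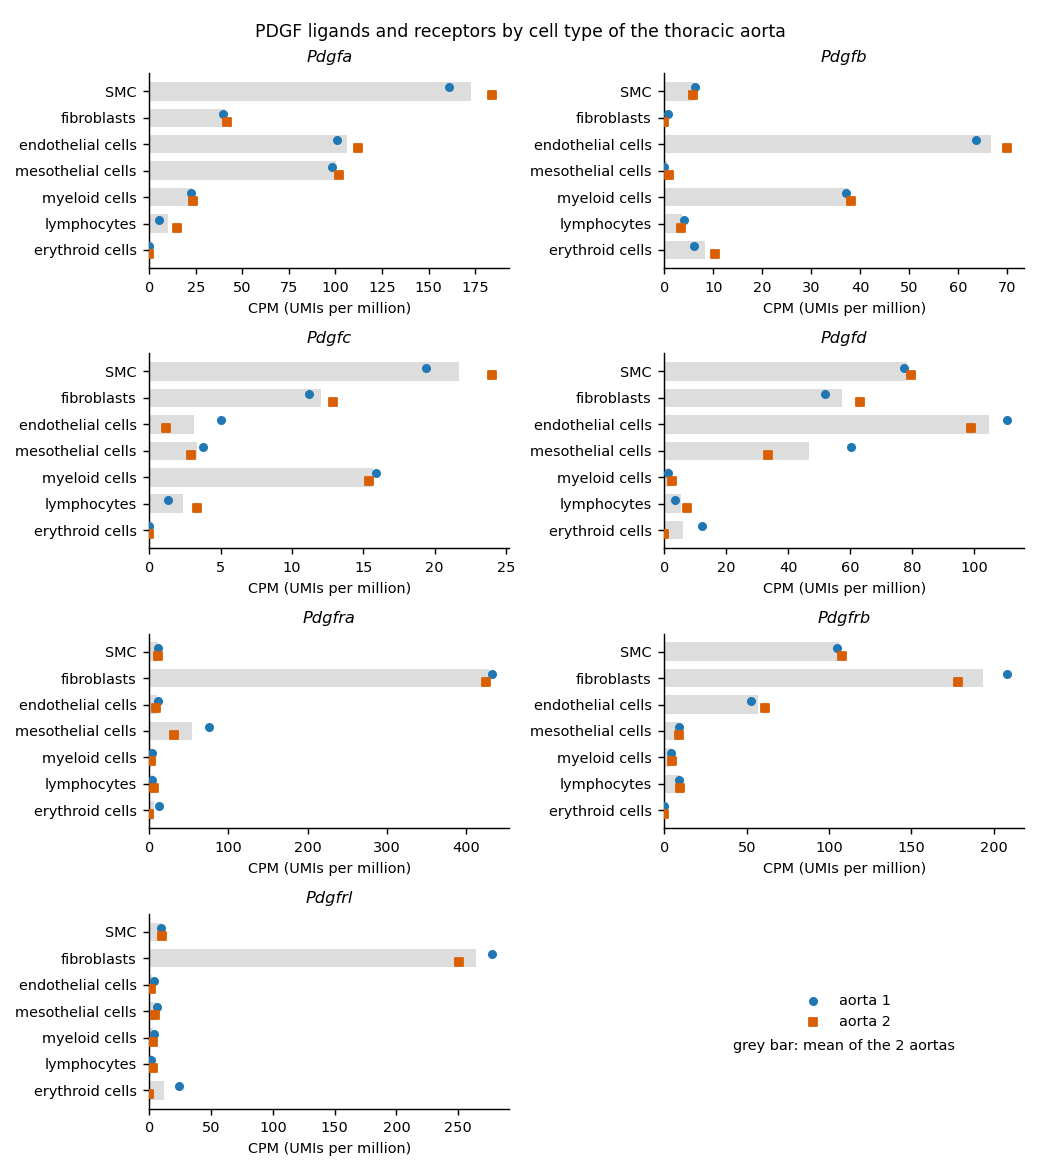
Level of each gene in CPM in 7 cell types, with 1 panel per gene and its own axis. Circles are aorta 1, squares aorta 2 and grey bars their mean. *Pdgfa* and *Pdgfc* are highest in SMCs, *Pdgfb* and *Pdgfd* in endothelial cells, and the 3 receptor genes in fibroblasts.

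*Pdgfra*, the α receptor gene (chr5:75152292-75198215, plus strand; ENSMUSG00000029231), was at 433 and 425 CPM in fibroblasts. Mesothelial cells followed with 75.3 and 31.4 CPM, SMCs with 11.4 and 11.0 CPM, endothelial cells with 11.0 and 7.95 CPM and lymphocytes with 3.36 and 5.53 CPM. Fibroblasts were above every other type in both aortas. The log2 fold change of SMCs against fibroblasts was -5.18 ± 0.17 (adjusted p = 1.89e-16, edgeR), and that of fibroblasts against endothelial cells 5.60 ± 0.22 (adjusted p = 2.25e-15, edgeR). The difference of 0.41 ± 0.30 between SMCs and endothelial cells did not pass (adjusted p = 0.261, edgeR). After thinning, 33.8% and 32.0% of fibroblasts held a UMI (79.3% and 78.1% without thinning). The thinned SMC share was 1.18% in both aortas. In aorta 2 it lay within the interval of the lymphocytes (0.551%, 0.0668 to 1.98). In aorta 1 it lay just above theirs (0.322%, 0.0390 to 1.16), with the intervals of both types overlapping. No test was made between these shares. The levels above came from 173 and 117 UMIs in SMCs and 10 and 10 in lymphocytes. Without thinning the shares were 8.66% and 7.53% of SMCs and 1.45% and 1.93% of lymphocytes, at the median depths given above. The SMC level was 0.0263 and 0.0260 of the fibroblast level for *Pdgfra* and at most 0.00294 and 0.00283 of it for the 3 fibroblast markers.

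The mesothelial *Pdgfra* level came mostly from 24 cells. A small cluster of 19 and 5 cells led by *Cxcl13*, *Col6a5* and *Wnt4* held 116 of the 139 mesothelial *Pdgfra* UMIs in aorta 1 and 25 of 32 in aorta 2, at 531 and 357 CPM. It had been named mesothelial from *Upk3b*, *Lrrn4*, *Krt19* and *Wt1*, but held 1 and 0 UMIs of *Msln* and 11386 and 9603 CPM of the fibroblast marker *Dcn* and 1423 and 756 CPM of *Clec3b*, with no UMI of *Dpt*. The remaining mesothelial cells, led by *Msln* and *Upk3b*, held 14.1 and 7.37 CPM of *Pdgfra*. Fibroblasts exceeded the whole mesothelial group by 3.08 ± 0.18 log2 units (adjusted p = 5.61e-12, edgeR).

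*Pdgfrb*, the β receptor gene (ENSMUSG00000024620), was counted mainly in fibroblasts and SMCs. Fibroblasts held 208 and 178 CPM, SMCs 105 and 108 CPM and endothelial cells 52.8 and 61.2 CPM, followed by lymphocytes at 9.08 and 9.40 CPM and mesothelial cells at 9.21 and 8.83 CPM. The 3 highest types did not overlap, and lymphocytes and mesothelial cells did. The log2 fold change of SMCs was -0.80 ± 0.10 against fibroblasts (adjusted p = 4.35e-07, edgeR) and 1.10 ± 0.12 against endothelial cells (adjusted p = 7.21e-08, edgeR). With scaling by DESeq2 size factors these became -1.01 and 0.93, so that the first passed the limit of 1 log2 unit and the second did not. After thinning, 18.0% and 16.3% of fibroblasts, 10.7% and 11.1% of SMCs and 4.46% and 5.64% of endothelial cells held a UMI, against 0.966% and 1.93% of lymphocytes. The endothelial intervals (3.13 to 6.15 and 4.08 to 7.57) lay above those of the lymphocytes (0.355 to 2.09 and 0.779 to 3.93) in both aortas. Of the 168 and 154 endothelial *Pdgfrb* UMIs, 66 and 33 came from a subset with fibroblast genes, described below. The endothelial levels, fold changes and shares given here include that subset.

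Markers of SMCs and fibroblasts were measured beside the endothelial *Pdgfrb* level. The ratio of the endothelial to the SMC level was 0.503 and 0.569 for *Pdgfrb*. The same ratio for the 6 SMC markers lay between 0.0167 and 0.0775 in aorta 1 and between 0.0123 and 0.0896 in aorta 2. Against fibroblasts, the ratio was 0.254 and 0.344 for *Pdgfrb* and at most 0.131 and 0.117 for the 3 fibroblast markers. Endothelial cells held 1383 and 1136 CPM of the SMC markers and 948 and 863 CPM of the fibroblast markers, none of either list at 0. These ratios take 1 list at a time. The part of SMC and fibroblast transcripts together in the endothelial *Pdgfrb* level was not tested.

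*Pdgfrl* encodes a secreted protein that resembles the ligand-binding part of the receptors and has no kinase domain. It lies at chr8:40926212-40990785, plus strand (ENSMUSG00000031595). Fibroblasts held 278 and 251 CPM, SMCs 9.28 and 10.2 CPM, mesothelial cells 5.96 and 4.91 CPM, myeloid cells 3.51 and 2.75 CPM, and endothelial cells 3.46 and 1.59 CPM. Lymphocytes held 1.35 and 3.32 CPM, and erythroid cells 4 UMIs in aorta 1 and 0 in aorta 2. Fibroblasts were far above all other types, and myeloid cells, endothelial cells and lymphocytes overlapped. The log2 fold change of SMCs was -4.70 ± 0.13 against fibroblasts (adjusted p = 1.65e-17, edgeR) and 2.06 ± 0.33 against endothelial cells (adjusted p = 1.54e-05, edgeR), a contrast that rested on 11 and 4 endothelial UMIs. After thinning, 21.8% and 20.1% of fibroblasts and 0.883% and 0.549% of SMCs held a UMI, against 0.161% and 0.551% of lymphocytes.

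Counted over the family, 4 of 7 members passed an adjusted p of 0.05 and an absolute log2 fold change of 1 between SMCs and fibroblasts, 2 in each direction: *Pdgfa* and *Pdgfb* were higher in SMCs, and *Pdgfra* and *Pdgfrl* in fibroblasts. Leaving out markers and clustering genes, 21.1% of the remaining 11744 genes did so. Every share of all genes, here and below and among subsets, leaves out markers and clustering genes. The clustering genes were chosen as variable among cells, and the PDGF and pathway genes had been kept out of them. Shares over all 13944 genes of the fit were not computed and can be higher. The median log2 difference of the members was 0.53 against -0.07 for all genes tested. Between SMCs and endothelial cells 4 of 7 passed (*Pdgfc*, *Pdgfrb* and *Pdgfrl* higher in SMCs, *Pdgfb* lower), with 25.6% of all genes. Between fibroblasts and endothelial cells 6 of 7 passed, *Pdgfd* being the exception (21.1% of all genes), and between fibroblasts and mesothelial cells 5 of 7 passed, *Pdgfb* and *Pdgfd* being the exceptions (20.2% of all genes). All 7 differed among the 7 types at an adjusted p under 0.05, as did 91.1% of all genes, so that test does not set the family apart.

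The genes whose mean log2(CPM + 1) over the 7 types ran most closely with each member were found among 13944 genes. These are descriptions over 7 points that share libraries and depth. The erythroid point came from 24 and 14 cells, where 3 counts would be 18.1 and 31.2 CPM. Some genes named below peaked under those values, such as *Grm3* (4.53 CPM), *9330162012Rik* (6.16 CPM) and *Mnd1* (7.16 CPM). *Fam129b* was highest in endothelial cells. For *Pdgfa* they were *Fam129b* (Pearson r over cell types of 0.996), *Pdlim4* (0.991) and *Map3k10* (0.989), and for *Pdgfb* *Cd93* (0.924), *Ehd4* (0.914) and *Ip6k3* (0.910). *Pdgfc* ran with *Cib2* (0.982), *Alcam* (0.980) and *Arhgef10l* (0.975), and *Pdgfd* with *Phldb2* (0.995), *Mageh1* (0.994) and *Hoxa4* (0.988). The closest genes to *Pdgfra* were *Entpd2* (0.992), *9330162012Rik* (0.990) and *Cpxm1* (0.988), to *Pdgfrb* *Gpc6* (0.987), *Zhx3* (0.987) and *Mnd1* (0.986), and to *Pdgfrl* *Zfp469* (0.989), *Grm3* (0.984) and *Galnt17* (0.983). Of these, *Cd93*, *Alcam*, *Entpd2*, *Cpxm1* and *Zfp469* had been used to cluster the cells.

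Within SMCs, *Pdgfa* and *Pdgfc* were highest in a small set of cells. SMCs were clustered again without the PDGF and pathway genes, which gave 7 subsets with at least 10 cells in each aorta. All 6 members that could be tested differed among them at an adjusted p under 0.05 (edgeR), against 38.4% of 7342 genes, and *Pdgfrl* was too low to test. A subset of 59 and 42 cells led by *Kcna5*, *Olfr558* and *Pln* held 406 and 454 CPM of *Pdgfa* and 112 and 145 CPM of *Pdgfc*. In the 6 other subsets *Pdgfa* ranged from 81.1 to 242 CPM and *Pdgfc* from 13.7 to 30.1 CPM. Both genes were above all other subsets in both aortas (among subsets, adjusted p = 1.52e-10 for *Pdgfa* and 5.91e-09 for *Pdgfc*, edgeR). It held 193 and 150 UMIs of *Pdgfa* and 53 and 48 of *Pdgfc*. The other ligand genes did not stand out there, with 8.42 and 3.02 CPM of *Pdgfb* and 82.0 and 72.6 CPM of *Pdgfd*. *Kcna5* encodes a voltage-gated potassium channel and *Olfr558* an odorant receptor. Of other genes of mural cells, *Notch3* was at 248 and 260 CPM in this subset and at most 21.6 CPM in the others, whereas *Rgs5*, *Kcnj8* and *Abcc9* were not high. Here *Rgs5* was at 147 and 51.4 CPM, *Kcnj8* at 4.21 and 12.1 CPM and *Abcc9* at 16.8 and 33.3 CPM. In the subset led by *Dlx6* and *Msx2*, described below, *Rgs5* was at 2915 and 2179 CPM, *Kcnj8* at 220.0 and 188 CPM and *Abcc9* at 228 and 203 CPM.

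*Pdgfc* was highest in SMCs, but its log2 difference from fibroblasts, 0.92, was under the limit of 1. Its upstream window is shown because it holds a CArG box, the motif to which serum response factor binds in many contractile genes. That of *Pdgfra*, the member with the largest fold change between SMCs and fibroblasts, is shown beside it. Both are the 100 bases before the RefSeq transcript start on GRCm38.p6, written 5′ to 3′ with the CArG box in capitals, at chr3:81036316-81036415, plus strand, for *Pdgfc* and chr5:75152151-75152250, plus strand, for *Pdgfra*.
Pdgfc: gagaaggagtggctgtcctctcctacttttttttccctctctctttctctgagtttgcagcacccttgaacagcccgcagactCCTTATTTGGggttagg
Pdgfra: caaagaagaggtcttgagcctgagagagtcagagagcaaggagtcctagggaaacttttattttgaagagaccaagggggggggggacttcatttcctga
The box begins 17 bases before the *Pdgfc* start. A CArG box on either strand was found in 1.47% of 32851 RefSeq promoter windows of 250 bases, TATAAA in 12.4% and GGGCGG in 32.7%. The *Pdgfra* window held none of these motifs, and that of *Pdgfd* held TATAAA 160 bases before its start. *Pdgfa*, also highest in SMCs, had 2 RefSeq windows with no CArG box and no TATAAA, and both held GGGCGG. A match is a string of letters and was not tested as a binding site, and its relation to the levels was not tested.

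The 3 largest SMC subsets had among their leading genes *Hand2* and *Tbx20* (675 and 362 cells), *Hoxa7* and *Hoxb8* (402 and 381 cells) and *Dlx6* and *Msx2* (388 and 384 cells), all transcription factor genes of development. *Pdgfa* was at 209 and 231 CPM in the *Hoxa7* subset, 143 and 152 CPM in the *Hand2* subset and 107 and 135 CPM in the *Dlx6* subset, with no overlap. *Pdgfb*, low in SMCs as a whole, was at 11.6 and 11.9 CPM in the *Hoxa7* subset, from 47 and 43 UMIs, against 3.52 and 2.18 CPM and 2.84 and 1.71 CPM in the *Hand2* and *Dlx6* subsets (adjusted p = 1.22e-04 among subsets, edgeR). In a subset of 24 and 18 cells led by *Arc* and *Fos* it was at 41.1 and 12.0 CPM, on 9 and 2 UMIs. The endothelial markers summed to 33.3 and 34.1 CPM in the *Hoxa7* subset and to 32.8 and 44.5 CPM in the *Hand2* subset.

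*Pdgfra* in SMCs had its highest mean in the *Dlx6* subset, at 28.4 and 22.2 CPM from 90 and 65 UMIs. In a subset of 94 and 35 cells led by *Nrn1*, *Scin* and *Cd74* it was at 19.3 and 20.1 CPM. That level came from 10 and 4 UMIs and was close to the *Dlx6* subset in aorta 2. The subset with few UMIs, described below, gave no *Pdgfra* UMI. There 3 counts would be 32.1 and 31.5 CPM, so it could not be ranked. The *Hand2* subset held 7.05 and 6.84 CPM and the *Hoxa7* subset 5.91 and 6.37 CPM (adjusted p = 1.29e-05 among subsets, edgeR). The fibroblast markers were at 53.1 and 67.0 CPM in the *Dlx6* subset, 56.7 and 58.1 CPM in the *Hand2* subset and 96.5 and 105 CPM in the *Nrn1* subset. *Pi16*, a marker of some fibroblasts outside that list, was at 47.1 and 60.9 CPM in the *Dlx6* subset and 9.50 and 9.95 CPM in the *Hand2* subset, and its part in the *Pdgfra* level was not tested. The SMC markers were at 24194 and 25604 CPM in the *Dlx6* subset against 48297 and 45364 CPM in the *Hand2* subset. *Pdgfrb* was also higher in the *Dlx6* subset, at 135 and 136 CPM, than in the *Hand2* subset, at 87.3 and 79.3 CPM (adjusted p = 0.00123 among subsets, edgeR), and highest, at 193 and 210 CPM, in a subset of 42 and 45 cells with few UMIs. *Pdgfd* was between 73.1 and 87.7 CPM in the 3 large subsets, at 182 and 73.4 CPM in the subset with few UMIs, on 17 and 7 UMIs, and at 42.5 and 15.1 CPM in the *Nrn1* subset, on 22 and 3 UMIs (adjusted p = 0.0126 among subsets, edgeR).

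**Figure D3:**
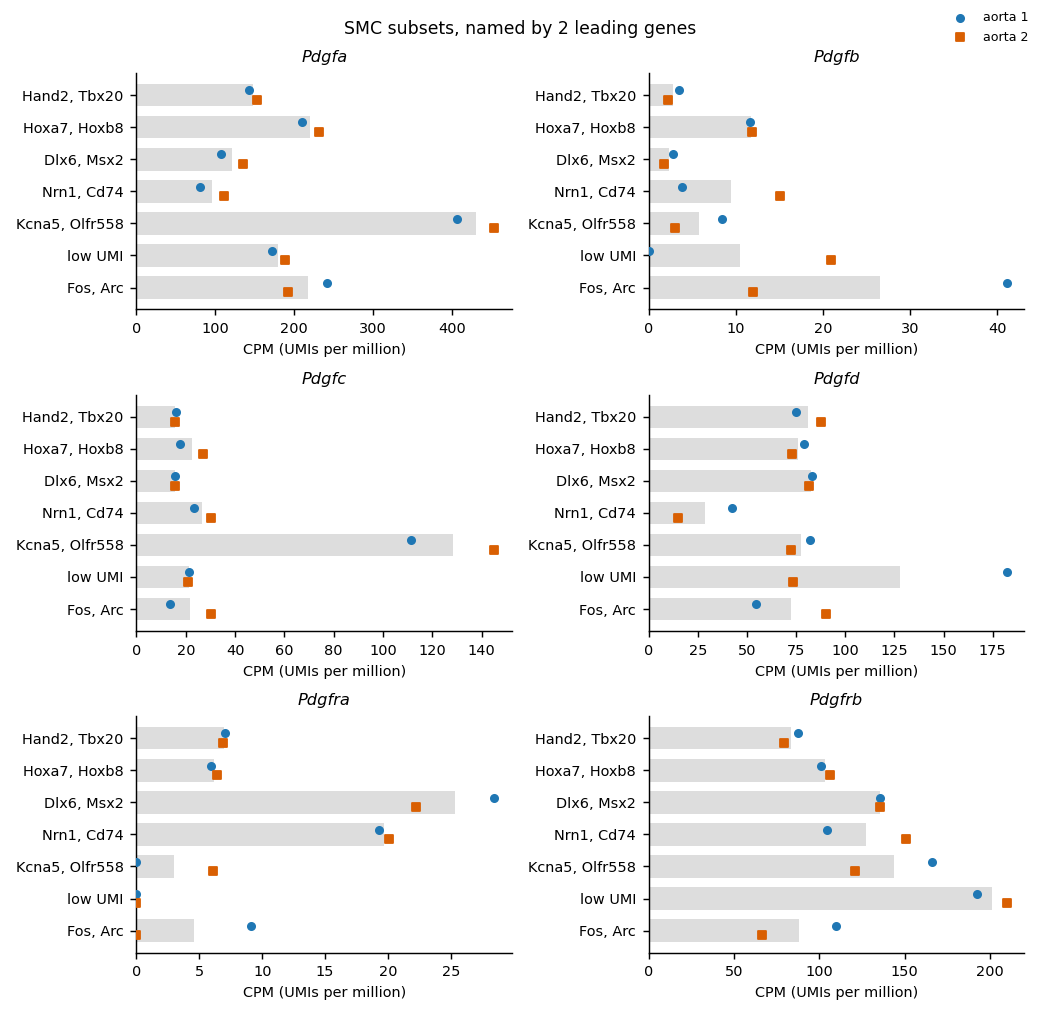
Levels of 6 genes in CPM in 7 SMC subsets, each named by leading genes or low UMI content. Circles are aorta 1, squares aorta 2 and grey bars their mean. The *Kcna5* subset stands above the rest in *Pdgfa* and *Pdgfc*. The *Dlx6* subset has the highest mean *Pdgfra*, with the *Nrn1* subset close to it in aorta 2.

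Some SMCs held transcripts of both *Pdgfa* and *Pdgfrb*. In aorta 1, 677 of 1698 SMCs (39.9%) held both, and in aorta 2, 498 of 1275 (39.1%). The products of the separate shares were 37.6% and 37.5%. *Pdgfra* and *Pdgfrb* were found together in 48.9% and 45.8% of fibroblasts, where the products were 46.6% and 43.1%, and in 5.18% and 4.47% of SMCs, where they were 4.99% and 4.10%. These counts are not thinned and rise with depth. In thinned cells *Pdgfa* and *Pdgfrb* were found together in 2.0% and 2.1% of SMCs, with products of 1.6% and 1.8%. *Pdgfra* and *Pdgfrb* were found together in 7.05% and 5.92% of thinned fibroblasts, with products of 6.09% and 5.21%. In thinned SMCs that pair went the other way, at 0.0589% and 0.0%, with products of 0.126% and 0.130%.

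Among fibroblasts, *Pdgfra* was broad and the other receptor genes were uneven. Clustering of the fibroblasts gave 8 subsets with at least 10 cells in each aorta. All 6 members tested differed among them at an adjusted p under 0.05 (edgeR), against 39.3% of 9440 genes, and *Pdgfb* was too low to test. Of the 8, a subset led by *Cnn1*, *Myh11* and *Tagln* among others (119 and 90 cells) held 24255 and 24469 CPM of SMC markers, and one led by T-cell genes (17 and 18 cells) 488 and 1410 CPM of T-cell markers and 1767 and 2851 CPM of myeloid markers. With both left out, the same number of members differed.

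In the 6 remaining fibroblast subsets *Pdgfra* ranged from 279 to 630 CPM. It was highest in the subset led by *Kitl*, *Comp* and *Myoc*, at 609 and 630 CPM, and in that led by *Tcf21*, *Penk* and *Lepr*, at 606 and 522 CPM. The lowest were the subset led by *Dact2*, *Pla1a* and *Dpp4*, at 316 and 279 CPM, and that led by *Chrm2* and *Mab21l2*, at 324 and 359 CPM. In the subset with SMC markers it was 119 and 93.6 CPM. *Pdgfra* differed among the 8 subsets (adjusted p = 3.63e-12, edgeR).

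*Pdgfrl* was at 676 and 700 CPM in the subset led by *Pax1*, *Fmod* and *Vegfd* and at 21.4 and 11.1 CPM in the *Dact2* subset (adjusted p = 1.01e-17 among subsets, edgeR). These subsets held 311 and 190 cells and 192 and 225 cells. *Pdgfrb* was highest in the subset led by *Meox1*, *Dio2* and *Frzb*, at 380 and 326 CPM, and was 67.7 and 70.0 CPM in the *Dact2* subset and 116 and 61.8 CPM in the *Tcf21* subset (adjusted p = 1.56e-11 among subsets, edgeR). The *Dact2* subset, low in both, held the most *Pdgfc* of these 6, at 34.9 and 26.6 CPM from 49 and 43 UMIs. The *Myoc* subset, at the other end, gave 0 and 3 *Pdgfc* UMIs in 445 and 367 cells (adjusted p = 3.77e-08 among subsets, edgeR).

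*Pdgfa* in fibroblasts was highest in the subset with SMC markers, at 130 and 126 CPM, and ranged from 11.1 to 86.3 CPM in the 6 others (adjusted p = 1.35e-10 among subsets, edgeR). Leaving all subsets led by genes of another class out of the 3 cell types, a choice made after seeing the data, raised the difference between SMCs and fibroblasts from 2.16 to 2.50 log2 units for *Pdgfa* and from 0.92 to 1.17 for *Pdgfc*, which then passed the limit of 1. *Pdgfd* ran from 30.7 to 89.9 CPM in these 6 subsets, highest in the *Pax1* and *Meox1* subsets (adjusted p = 0.00101 among subsets, edgeR).

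**Figure D4:**
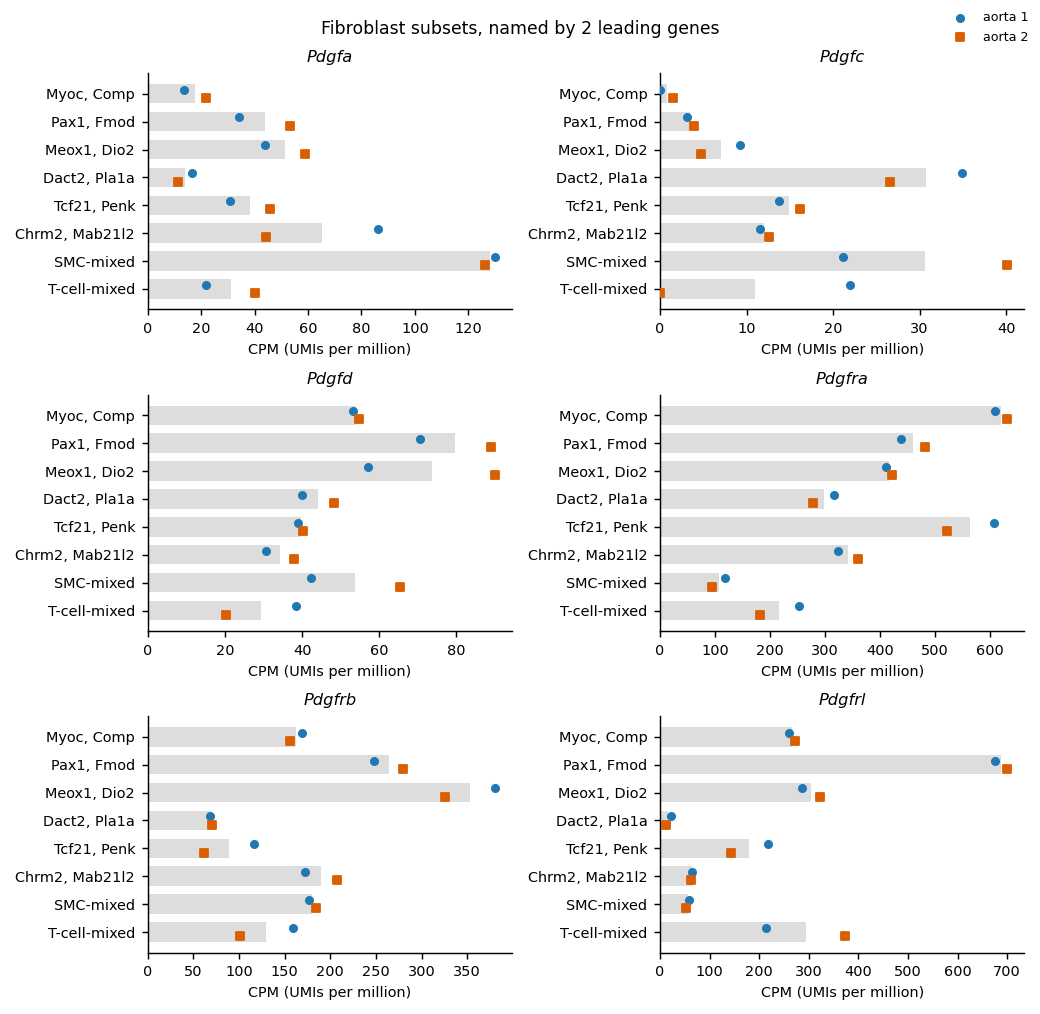
Levels of 6 genes in CPM in 8 fibroblast subsets, with circles for aorta 1, squares for aorta 2 and grey bars for their mean. *Pdgfrl* peaks in the *Pax1* subset and *Pdgfrb* in the *Meox1* subset, while the *Dact2* subset is low in both and higher in *Pdgfc*.

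Endothelial cells gave 8 subsets, and 4 members were high enough to test among them: *Pdgfa*, *Pdgfb*, *Pdgfd* and *Pdgfrb*. All 4 differed at an adjusted p under 0.05 (edgeR), against 26.3% of 6935 genes. *Pdgfb* was highest in a subset led by *Gpihbp1*, *Car4* and *Rgcc*, genes of capillary endothelium, at 214 and 306 CPM from 10 and 21 UMIs in 14 and 28 cells. The next was a subset led by *Sema3g*, *Alpl* and *Jag2*, with genes of arterial endothelium, at 201 and 127 CPM, followed by the subset led by *Adra2a* and *Cyp4b1* at 88.5 and 120 CPM. The subsets led by *Nkx2-3* (20.1 and 33.6 CPM) and by *Dlx6* and *Hand2* (14.1 and 23.2 CPM) were lower than these 3 in both aortas (adjusted p = 3.80e-13 among subsets, edgeR). The *Gpihbp1* subset also held 2851 and 1559 CPM of myeloid markers, against at most 97.4 CPM in the others, and the part of these in its *Pdgfb* was not tested.

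*Pdgfd* took another order. It was highest in the *Adra2a* subset, at 198 and 187 CPM, and lowest in the subset led by *Prox1* and *Reln*, genes of lymphatic endothelium, at 12.0 and 16.2 CPM from 2 and 4 UMIs (adjusted p = 7.66e-12 among subsets, edgeR). *Pdgfa* ranged from 65.9 to 181 CPM in the subsets other than *Gpihbp1* (42.9 and 72.8 CPM) and *Ackr1* (11.5 and 0 CPM, from 1 and 0 UMIs; adjusted p = 1.57e-05 among subsets, edgeR).

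Endothelial *Pdgfrb* was found in some subsets and hardly in others. It was at 68.7 and 93.9 CPM in the *Nkx2-3* subset and 56.6 and 76.7 CPM in the *Adra2a* subset, but came from 4 and 3 UMIs in the 98 and 52 cells of the *Sema3g* subset, and gave 2 and 0 UMIs in the lymphatic subset (adjusted p = 4.78e-10 among subsets, edgeR). The SMC markers were at 692 and 739 CPM in the *Nkx2-3* subset, 1320 and 1381 CPM in the *Adra2a* subset and 1011 and 634 CPM in the *Sema3g* subset. The fibroblast markers were at 704 and 607 CPM, 993 and 993 CPM, and 432 and 236 CPM in the same order, and their part in the *Pdgfrb* levels was not tested. A subset led by *Nrg1*, *Lum* and *Dcn*, with 1942 and 1892 CPM of fibroblast markers, held 88.4 and 73.4 CPM of *Pdgfrb* and 25.4 and 22.3 CPM of *Pdgfra*. With this and the other mixed subsets left out of the cell types, *Pdgfra* differed between SMCs and endothelial cells by 1.13 ± 0.37 log2 units (adjusted p = 0.0129, edgeR), in place of 0.41 with it.

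**Figure D5:**
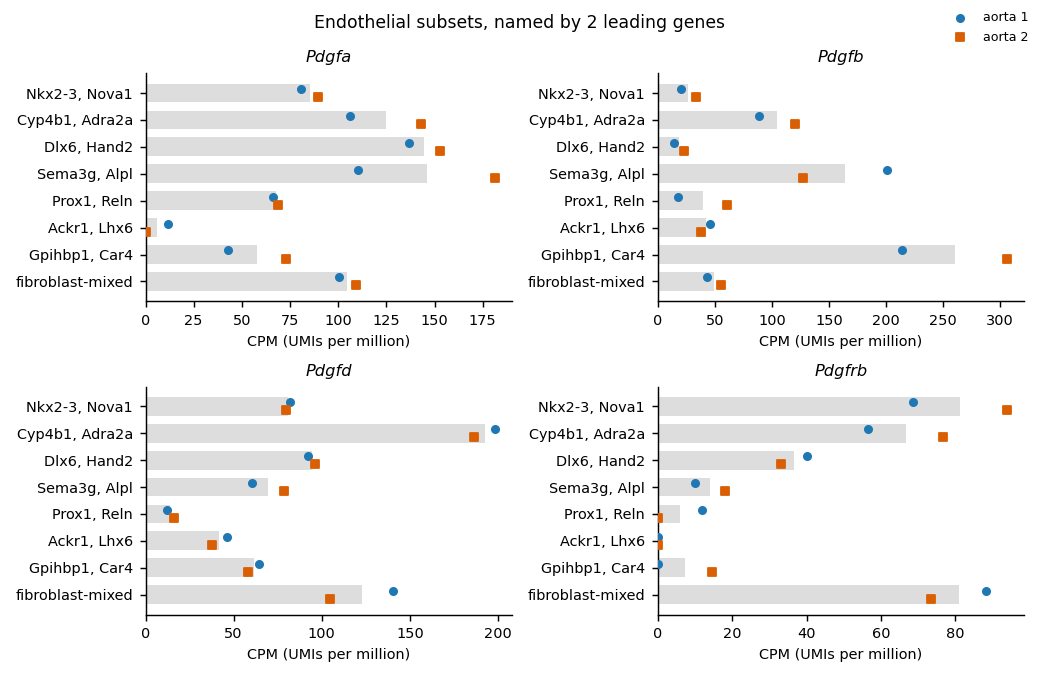
Levels of 4 genes in CPM in 8 endothelial subsets, with circles for aorta 1, squares for aorta 2 and grey bars for their mean. *Pdgfb* is highest in the *Gpihbp1* and *Sema3g* subsets, *Pdgfd* in the *Adra2a* subset, and *Pdgfrb* in the *Nkx2-3*, *Adra2a* and fibroblast-mixed subsets.

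Among myeloid clusters, *Pdgfb* and *Pdgfc* were highest in different ones. A cluster led by *Mmp12*, *H2-M2* and *Cd207* (118 and 78 cells) held 146 and 169 CPM of *Pdgfb* and 1 UMI of *Pdgfc* in each aorta. The largest cluster, led by *Folr2* and *Cd163* (533 and 333 cells), genes of resident macrophages, held 25.3 and 13.0 CPM of *Pdgfb* and 31.2 and 29.2 CPM of *Pdgfc*. It contributed 73 of the 222 myeloid *Pdgfb* UMIs in aorta 1 and 24 of 138 in aorta 2, and 90 of the 95 myeloid *Pdgfc* UMIs in aorta 1 and 54 of 56 in aorta 2. A cluster led by *S100a8* and *S100a9*, neutrophil genes, gave no UMI of either gene. These are values of the clusters, with no test between them.

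The other genes of the pathway were taken from 4 lists with 45 genes in all, of which 44 could be tested. Between SMCs and fibroblasts 17 passed (38.6%), 4 higher and 13 lower in SMCs, with a median log2 difference of -0.44. Of all genes without markers and clustering genes, 21.1% passed. Of 6 proteases tested, 2 passed, both lower in SMCs. *Plat*, the tissue plasminogen activator that can release PDGF-C, was at 36.7 and 39.9 CPM in SMCs and 192 and 230 CPM in fibroblasts (log2 difference -2.39 ± 0.15, adjusted p = 6.50e-12, edgeR). *Plau*, the urokinase that can release PDGF-D, was at 0.724 and 0.472 CPM in SMCs and 5.65 and 13.3 CPM in fibroblasts (-3.75 ± 0.41, adjusted p = 1.07e-07, edgeR). Both differences were negative in each aorta.

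Of 9 co-receptors and extracellular modulators, 3 were higher and 5 lower in SMCs, where 8.75% of all genes were higher and 12.3% lower. *Cspg4*, the NG2 proteoglycan of mural cells that binds PDGF-AA, was at 308 and 313 CPM in SMCs and 24.7 and 24.7 CPM in fibroblasts (3.72 ± 0.12, adjusted p = 1.09e-16, edgeR). *Lrp1*, an endocytic receptor that associates with the β receptor, was at 259 and 270 CPM in SMCs and 1295 and 1253 CPM in fibroblasts (-2.20 ± 0.16, adjusted p = 1.35e-10, edgeR). *Nrp1*, a co-receptor for several growth factors, was at 39.2 and 51.5 CPM in SMCs, 291 and 321 CPM in fibroblasts and 716 and 719 CPM in endothelial cells (-2.69 ± 0.14 between SMCs and fibroblasts, adjusted p = 4.07e-13, edgeR).

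Of 18 intracellular effectors, 4 were lower and none higher in SMCs, in all a share near the 21.1% of all genes. *Fyn*, a Src-family kinase, was at 6.91 and 5.47 CPM in SMCs and 76.5 and 99.4 CPM in fibroblasts (-3.72 ± 0.16, adjusted p = 1.67e-14, edgeR). *Pik3r1*, the regulatory subunit of phosphoinositide 3-kinase, had a log2 difference of -2.29 ± 0.11 (adjusted p = 5.61e-14, edgeR), and the adaptor *Nck1* one of -1.07 ± 0.12 (adjusted p = 1.43e-07, edgeR). Of 11 attenuators, 1 was higher and 2 lower, also near the share of all genes. *Spry1*, an inhibitor of receptor tyrosine kinase signaling, was at 8.82 and 6.41 CPM in SMCs and 63.9 and 42.3 CPM in fibroblasts (-2.72 ± 0.20, adjusted p = 2.00e-10, edgeR). The ubiquitin ligase *Cblb* had a difference of -1.53 ± 0.13 (adjusted p = 3.15e-09, edgeR) and the phosphatase *Ptpn2* one of 1.16 ± 0.13 (adjusted p = 1.40e-07, edgeR). With DESeq2 size factors, and with DESeq2, the difference of *Ptpn2* was 0.95, under the limit of 1 for a call. Against endothelial cells, 21 of 44 passed (47.7%, against 25.6% of all genes), 11 higher and 10 lower in SMCs, with a median of -0.06.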

How the data were processed

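Per the labels, the authors sorted viable single cells from 2 thoracic aortas and made 3′ droplet libraries. The deposited values are raw UMI counts per gene and cell, made by the authors with Cell Ranger 4.0.0 (per the file headers) from mm10 with eGFP and tdTomato added; Seurat 4.0 is named in the submitters' notes. Strand use in the counting was not given in the sources used here, and 5 of the 7 members overlap a gene on the opposite strand. The annotation used for positions and names was GENCODE on GRCm38, and promoter sequences were from RefSeq; *Pdgfb* and *Pdgfrl* were not matched there. Median depth per analysed cell was 5671 and 5397 UMIs.

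Cells with more than 200 genes, 1000 to 25000 UMIs and under 10% mitochondrial UMIs were kept, and doublets called by Scrublet (205 and 84 cells, 3.04% and 1.79%) were removed. Cells were clustered with scanpy 1.11.5 and leidenalg 0.10.2 (2000 variable genes, 30 components, 15 neighbours, resolution 1) without the PDGF and pathway genes. Of 29 clusters, 26 were named from at least 3 of a class's markers. Every cell type name means cells that resemble the type by its markers, and can differ from the study's names. SMCs, fibroblasts and endothelial cells were clustered again at resolution 0.5. UMIs were summed per aorta and type or subset and tested with edgeR 4.0.16 in R 4.3.3 (TMM, filterByExpr, quasi-likelihood, Benjamini-Hochberg over all genes tested), with type or subset as the only term. Between types, a gene passed where its adjusted p was below 0.05 and its log2 fold change was beyond 1 in either direction. The SE is the absolute log2 fold change over the square root of F. Shares of cells were taken after thinning each cell to 1000 UMIs. Intervals of shares are exact (Clopper-Pearson) and cover counting error only. The edgeR step was tested on simulated data.

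The aorta pairs the sums, because sums with the same number came from the same animal. The aorta difference of 1 type correlated with that of another at r between -0.07 and 0.13 over 21 pairs of types. The aorta as a term was an alternative, as were DESeq2 1.42.0, other filters, clusterings and markers, and leaving out each aorta. All 7 members were described. Pathway genes are named where they were among the 3 of their list with the largest absolute log2 fold change of those that passed between SMCs and fibroblasts, and genes of like pattern where they were the 3 with the highest r. The members, lists and rules were chosen with earlier results of these data known.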

Additional observations from a re-analysis of the deposited data

Results flagged for a closer look

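Transcripts of all 7 genes were also counted in the 2998 and 2004 deposited cells outside the named types, which are the cells removed by the filters, the called doublets and the unnamed clusters. They held 1078 UMIs of *Pdgfa*, 155 of *Pdgfb*, 165 of *Pdgfc*, 581 of *Pdgfd*, 936 of *Pdgfra*, 935 of *Pdgfrb* and 476 of *Pdgfrl*, above the 3 counts that 0 would allow. Among these cells was a cluster of 513 and 330 cells with SMC markers and few UMIs. It held 143 and 148 CPM of *Pdgfa*, against 161 and 184 CPM in SMCs, and 67.7 and 59.6 CPM of *Pdgfrb*, against 105 and 108 CPM. No group had enough samples for a test of single outlying libraries.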

How the results depend on the processing

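The counts of members and pathway genes that passed stayed within 1.5 times their values under every alternative run. They could not be recomputed without an aorta, because no residual degrees of freedom remain, and the fold changes then have no test. Of 364 recomputed member fold changes, 327 kept direction and side of the limits, 3 lost a call, 5 gained one, 2 turned with a test, and 27 moved by over 1 SE, all on leaving out an aorta. The 2 that turned with a test were *Pdgfb* between fibroblasts and mesothelial cells (0.55, adjusted p = 0.806, edgeR), which became -0.93 with doublets kept and -0.20 at resolution 2, on 8 and 0 against 0 and 1 UMIs. Values left without a test also changed sign: this one ranged from -4.75 to 5.14 on leaving out an aorta, and *Pdgfd* in the same comparison, 0.39 with both, from -0.02 to 1.09. The 3 lost calls were all *Pdgfrb* between SMCs and endothelial cells (0.99 with doublets kept, 0.93 with DESeq2 size factors and with DESeq2). *Pdgfc* between SMCs and fibroblasts gained a call at resolution 2 (1.16) and, with mixed subsets left out (chosen after seeing the data), at 1.17. Of 286 pathway fold changes 267 kept direction and side, 6 lost a call, 2 gained one and 11 moved. *Ptpn2* between SMCs and fibroblasts fell under the limit with DESeq2 size factors and with DESeq2 (0.95 in both), *Plau* ranged from -4.67 to -2.84 on leaving out an aorta, and *Spry1* between SMCs and endothelial cells, which had not passed, from -0.23 to 0.70. With the aorta as a replicate block, 4 members passed between SMCs and fibroblasts and 4 between SMCs and endothelial cells; the block changed no call of a member. Without the filter on low counts, 6 members in place of 4 differed among endothelial subsets. With 5000 to 25000 UMIs per cell, SMCs held 79.2% of *Pdgfa* in place of 66.9%, the mean of both aortas. *Pdgfb* in fibroblasts and mesothelial cells, and *Pdgfc* and *Pdgfrl* in endothelial cells, rested on at most 16 UMIs per aorta, which limits these values. The cause of these changes was not tested.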

Other observations

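Some levels lay in cells that entered no comparison of the subsets. In a lymphocyte cluster led by *Rag1*, *Ccr9* and *Dntt*, *Pdgfa* gave 1 UMI in 141 cells of aorta 1 and 11 UMIs in 85 cells of aorta 2. In lymphocytes led by *Hist1h1b* and *Top2a* it was at 19.5 and 34.0 CPM, from 8 and 13 UMIs, whereas the clusters led by *Ms4a4b* and by *Cd79a* held 3.41 and 3.29 CPM and 3.36 and 2.14 CPM. *Pdgfa* in the *Mmp12* and *Cd207* myeloid cluster was at 37.8 and 42.8 CPM, above the 25.3 and 21.7 CPM of the *Folr2* cluster, in the same cells that held the most myeloid *Pdgfb*. The unnamed cluster led by *Pla2g2d* and hemoglobin genes gave 5 and 1 UMIs of *Pdgfc* in 64 and 25 cells.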
